A study of Ovis aries with 24 samples.

Results

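Budesonide given into the airway of preterm lambs was followed by higher RNA of 8 genes in both the liver and the periventricular white matter (PVWM) of the brain. These were CHKA, DGKA, DPY19L4, EEF2K, EPHX2, FHOD1, HEXIM1 and SYK. These genes were chosen on that difference itself: each was called higher with budesonide than with surfactant alone in each tissue, so their budesonide values are a description and carry no test here. They are 8 of the 33 genes called higher in both tissues, and 8 of the 27716 entries in each count table. All 8 passed the filter on low counts in both tissues. A call means an adjusted p under 0.05 in the edgeR fit of the tissue, with Benjamini-Hochberg adjustment over all genes tested.

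RNA was sequenced from 24 libraries, 12 of liver and 12 of PVWM, with 4 lambs in each of 3 groups per tissue. The budesonide group was ventilated and received intratracheal Poractant alpha, a surfactant, at 2.5 mL/kg together with budesonide at 0.25 mg/kg. The surfactant group was ventilated and received the same dose of Poractant alpha without budesonide. The unventilated group received neither agent. In each ventilated group 3 animals were at 126 days of gestation and 1 was at 127 days, whereas unventilated animals were at 127 or 128 days, so age and ventilation overlapped only at 127 days. The 126-day animals of the ventilated groups were all labelled female and the 127-day animal of each was labelled male. Of the unventilated animals, 057 and 058, at 127 days, were labelled male. At 128 days, 059 was labelled female, 060 female in PVWM but without a sex in liver, and 061 had no sex given. Labelled sex thus moved with age, and it was not in any fit. Ventilation and surfactant always came together, so the surfactant against unventilated difference cannot be divided between them.

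Budesonide is a synthetic glucocorticoid. Glucocorticoids enter cells and bind the glucocorticoid receptor, a transcription factor of most tissues, which then moves to the nucleus and raises or lowers the transcription of its target genes. FKBP5, a chaperone that limits receptor activity, is a widely used reporter of this action. It averaged 495 ± 34.7 CPM with budesonide and 92.3 ± 40.3 CPM with surfactant in liver (SD, n = 4 each), a log2 change of 2.42, and 431 ± 33.3 CPM with budesonide and 150 ± 30.4 CPM with surfactant in PVWM, a log2 change of 1.52. CPM are counts-per-million values after TMM scaling within a tissue. FKBP5 belongs to a list of 8 glucocorticoid response genes. With budesonide over surfactant, 4 of these 8 were called higher in liver and 2 in PVWM, and 0 lower. The shares of all genes called higher were 4.01% and 0.591%. With surfactant over unventilated, without budesonide, 5 of the 8 listed genes were called higher in each tissue and 0 lower. The shares of all genes called higher there were 21.6% in liver and 1.35% in PVWM.

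Libraries held 16087620 to 23175121 counts in liver and 14929261 to 17532605 in PVWM. The tissue labels matched their markers: 9 hepatocyte genes summed to 211857 to 300840 CPM in liver and 108 to 263 CPM in PVWM, where FGA, a fibrinogen chain, was at 0 in every library, while 7 neuron genes summed to 5130 to 6496 CPM in PVWM and 6.84 to 18.2 CPM in liver. One PVWM library, of surfactant animal 051, stood apart with 12242 CPM of oligodendrocyte-lineage genes, against 935 to 2869 CPM in the other PVWM libraries. Liver libraries varied more than PVWM libraries, with a common biological coefficient of variation of 0.304 in liver and 0.197 in PVWM. In bulk tissue, fewer cells of a type and less RNA per cell cannot be told apart.

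Budesonide against surfactant gave the values on which the genes were chosen. Of 16824 genes tested in liver, 4.01% were called higher with budesonide and 7.85% lower. Of 18616 tested in PVWM, 0.591% were called higher and 0.387% lower. Of the 15458 genes tested in both, 0.213% were called higher in both, which are the 33 genes above. All 4 budesonide libraries lay above all 4 surfactant libraries for 7 of the 8 genes in liver and for 8 of 8 in PVWM; across all genes tested this held for 6.29% in liver and 4.02% in PVWM. All 4 budesonide libraries lay above the other 8 libraries of the tissue for 4 of the 8 genes in liver (DGKA, EPHX2, FHOD1 and SYK) and for 8 of 8 in PVWM, against 3.70% and 2.40% of all genes. These shares only describe the choice of genes, and nothing is read from them.

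Of the 8 genes, HEXIM1 and DPY19L4 were nearest to the limit of the choice, with a larger adjusted p in edgeR of 0.0426 and 0.0486. By that p they came 29th and 32nd among the 33 shared genes. Just outside the limit, among genes named by a symbol, were PPM1M and PER1. Both were called higher in liver, with edgeR adjusted p of 0.0502 and 0.0507 in PVWM. Among the 33 shared genes, ordered by the smaller of their log2 changes, EPHX2 came 5th, DGKA 8th, FHOD1 11th, SYK 13th, HEXIM1 16th, CHKA 21st, DPY19L4 24th and EEF2K 33rd. The median smaller change of the 33 was 0.70.

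**Figure D1:**
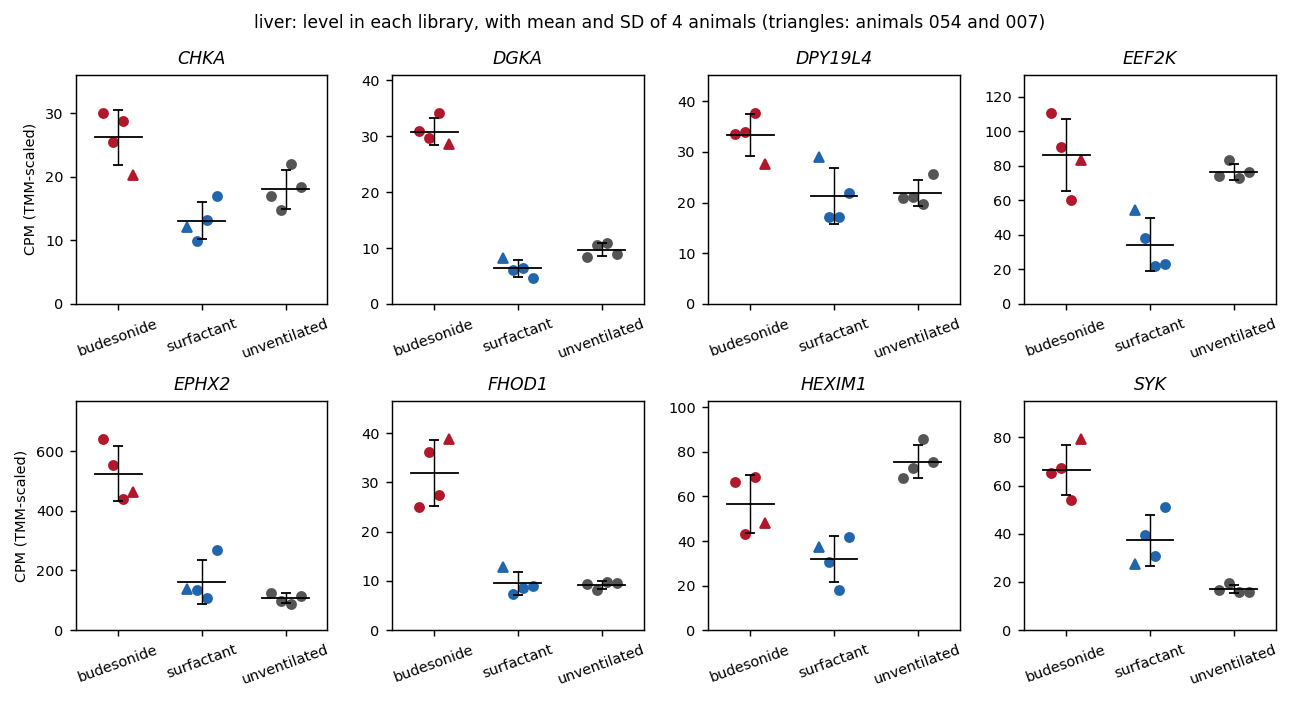
Level of each of the 8 genes in liver (CPM, linear axis from 0) by group. Points are libraries, triangles mark the 127-day animals 054 (budesonide) and 007 (surfactant), and bars give the mean and SD of 4 animals. Budesonide libraries lie above surfactant libraries for every gene except DPY19L4, where the surfactant triangle (29.0 CPM) lies above the lowest budesonide library (27.7 CPM), while the HEXIM1 mean is highest in unventilated liver.

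**Figure D2:**
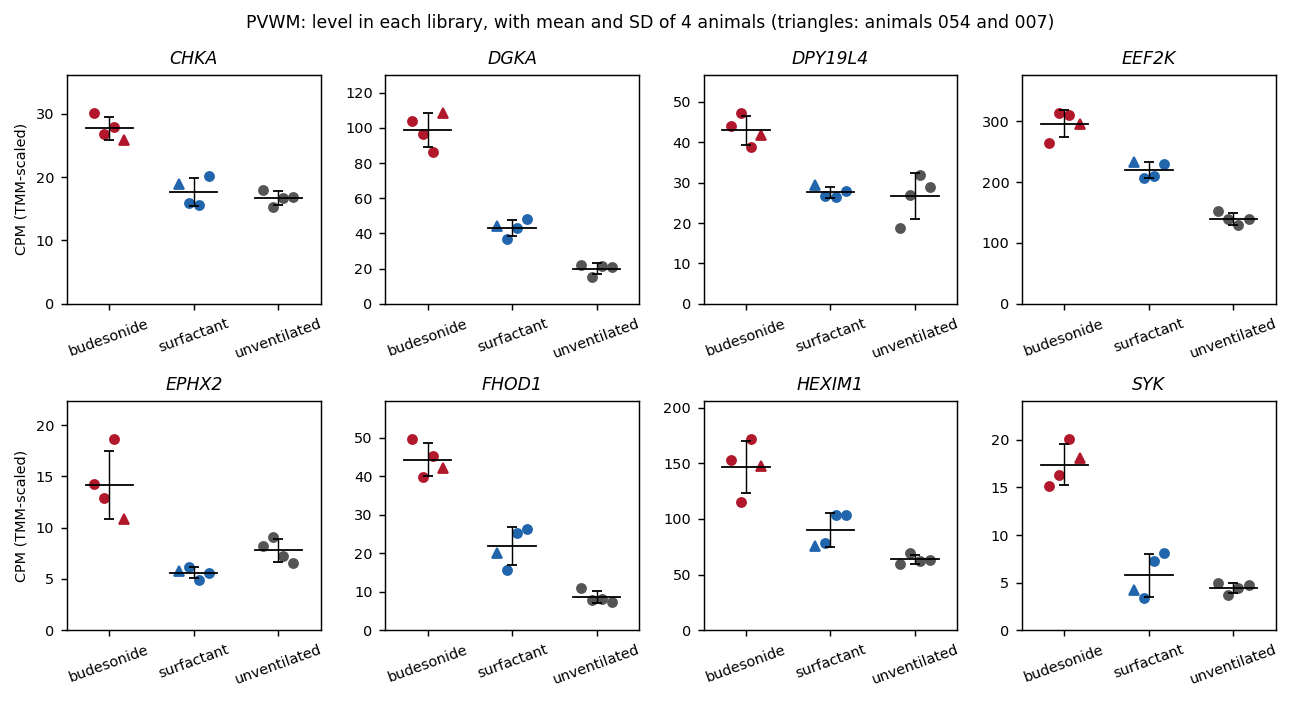
Level of each of the 8 genes in PVWM (CPM, linear axis from 0) by group, drawn as for liver. All 4 budesonide libraries lie above the other 8 libraries for every gene. Surfactant libraries lie above unventilated ones for DGKA, EEF2K, FHOD1 and HEXIM1, and below them for EPHX2.

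Lipid enzymes made up a group of 3. In the values below, budesonide libraries are in the order of animals 031, 048, 050 and 054, surfactant libraries in the order 007, 032, 049 and 051, and unventilated libraries in the order 057, 058, 059 and 060 for liver and 057, 058, 060 and 061 for PVWM. DGKA encodes diacylglycerol kinase alpha, which turns the second messenger diacylglycerol into phosphatidic acid. In liver it had 30.9, 29.6, 34.2 and 28.6 CPM with budesonide, 8.23, 6.06, 6.44 and 4.63 CPM with surfactant, and 8.48, 10.6, 10.9 and 8.97 CPM in unventilated lambs. The 3 groups did not overlap, with budesonide highest and surfactant lowest. The log2 change with budesonide over surfactant was 2.28 ± 0.18 (SE), a 4.86-fold difference and the largest of the 8 genes in liver. In PVWM, DGKA had 104, 96.5, 86.1 and 109 CPM with budesonide, 44.0, 36.7, 43.2 and 48.4 CPM with surfactant, and 21.8, 15.2, 21.3 and 21.2 CPM in unventilated lambs. Here too no groups overlapped, but the surfactant group stood between the other groups, and the log2 change with budesonide over surfactant was 1.20 ± 0.12.

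EPHX2 encodes soluble epoxide hydrolase, which converts epoxides of arachidonic acid into less active diols. Its liver levels were 640, 554, 439 and 464 CPM with budesonide, 137, 134, 108 and 269 CPM with surfactant, and 126, 97.0, 88.8 and 116 CPM in unventilated lambs. Budesonide libraries stood clear of the rest, and animal 051 was the highest of the surfactant group. The log2 change with budesonide over surfactant in liver was 1.69 ± 0.26. In PVWM, EPHX2 was low throughout, at 14.3, 12.9, 18.6 and 10.8 CPM with budesonide, 5.76, 6.18, 4.92 and 5.62 CPM with surfactant, and 8.22, 9.12, 7.27 and 6.56 CPM in unventilated lambs. The groups did not overlap there, the surfactant group was the lowest, and the log2 change with budesonide over surfactant was 1.33 ± 0.17.

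CHKA encodes choline kinase alpha, which starts the CDP-choline route to phosphatidylcholine, the main phospholipid of membranes and of surfactant itself. In liver it ranged over 20.3 to 30.1 CPM with budesonide, 9.96 to 17 CPM with surfactant and 14.7 to 22.1 CPM in unventilated lambs. The unventilated range overlapped each of the others. In PVWM it ranged over 25.8 to 30.1 CPM with budesonide, 15.6 to 20.2 CPM with surfactant and 15.2 to 18 CPM in unventilated lambs, with the last groups overlapping. The log2 change with budesonide over surfactant was 1.00 ± 0.20 in liver and 0.65 ± 0.11 in PVWM.

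HEXIM1 and EEF2K act as brakes on gene expression. HEXIM1 protein, with the 7SK RNA, holds P-TEFb inactive and so restrains the release of paused RNA polymerase II. In liver HEXIM1 had 66.3, 43.2, 68.8 and 48.2 CPM with budesonide, 37.4, 30.7, 17.9 and 42.0 CPM with surfactant, and 68.1, 72.9, 85.7 and 75.3 CPM in unventilated lambs. The surfactant group was lowest, and the budesonide group overlapped the lowest unventilated library. The log2 change was 0.82 ± 0.24 with budesonide over surfactant but -0.41 ± 0.24 with budesonide over unventilated. In PVWM it had 153, 116, 172 and 148 CPM with budesonide, 75.7, 78.4, 104 and 103 CPM with surfactant, and 59.6, 69.7, 62.5 and 63.0 CPM in unventilated lambs. That order, with unventilated lowest and no overlap, differed from liver, and the log2 change with budesonide was 0.70 ± 0.13 over surfactant and 1.21 ± 0.13 over unventilated.

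EEF2K encodes the kinase of elongation factor eEF2, which slows translation elongation. It had 111, 91.0, 60.0 and 83.4 CPM in liver with budesonide, 54.2, 38.2, 22 and 23.1 CPM with surfactant, and 74.2, 83.4, 73.0 and 76.4 CPM in unventilated liver. Budesonide and unventilated livers overlapped, and the surfactant livers lay below both. The liver log2 change was 1.33 ± 0.27 with budesonide over surfactant and 0.17 ± 0.27 with budesonide over unventilated. In PVWM it had 265, 314, 310 and 295 CPM with budesonide, 233, 206, 211 and 230 CPM with surfactant, and 153, 140, 129 and 139 CPM in unventilated lambs. The PVWM groups formed a ladder with budesonide at the top, and the log2 change was 0.43 ± 0.08 with budesonide over surfactant, the smallest of the 16 values of the 8 genes, and 1.08 ± 0.08 with budesonide over unventilated.

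SYK and FHOD1 belong to signalling and the cytoskeleton. SYK is a tyrosine kinase that docks on the phosphorylated ITAM motifs of immune receptors. In liver SYK had 65.1, 67.4, 54.0 and 79.3 CPM with budesonide, 27.6, 39.5, 30.8 and 51.3 CPM with surfactant, and 16.8, 19.4, 15.9 and 15.8 CPM in unventilated lambs. No groups overlapped, and levels were lowest in unventilated liver. In PVWM it had 15.2, 16.3, 20.1 and 18 CPM with budesonide, 4.19, 3.43, 7.28 and 8.11 CPM with surfactant, and 4.97, 3.72, 4.39 and 4.71 CPM in unventilated lambs. There the surfactant and unventilated groups overlapped, and only budesonide libraries stood apart. The log2 change with budesonide over surfactant was 0.83 ± 0.19 in liver and 1.60 ± 0.24 in PVWM.

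FHOD1 is a formin, a protein that binds and bundles actin filaments. Its liver levels were 25.1, 36.2, 27.4 and 38.8 CPM with budesonide, 12.9, 7.44, 8.61 and 9.01 CPM with surfactant, and 9.35, 8.08, 9.88 and 9.51 CPM in unventilated lambs. Budesonide livers stood apart while the other groups overlapped, and the log2 change with budesonide over surfactant was 1.75 ± 0.20. In PVWM it had 49.7, 39.8, 45.4 and 42.3 CPM with budesonide, 20.2, 15.7, 25.3 and 26.4 CPM with surfactant, and 10.9, 7.83, 8.15 and 7.43 CPM in unventilated lambs. No groups overlapped in PVWM, and the log2 change was 1.02 ± 0.16 with budesonide over surfactant and 2.37 ± 0.17 with budesonide over unventilated. FHOD1 overlaps SLC9A5, a sodium-proton exchanger, in RefSeq, and the strand setting of the counting is not stated, so reads of these genes may be mixed. SLC9A5 itself was not called, at log2 changes of -0.42 in liver and -0.20 in PVWM.

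DPY19L4 belongs to the DPY19 family of membrane proteins, some of which attach mannose to tryptophan. In liver it had 33.6, 34.0, 37.7 and 27.7 CPM with budesonide, 29.0, 17, 17.2 and 21.9 CPM with surfactant, and 21.0, 21.1, 19.8 and 25.5 CPM in unventilated lambs. The budesonide and surfactant ranges overlapped through the 127-day animals 054 and 007. In PVWM it ranged over 38.8 to 47.3 CPM with budesonide, 26.3 to 29.5 CPM with surfactant and 18.7 to 32.0 CPM in unventilated lambs. Its log2 change with budesonide over surfactant was near equal in the tissues, at 0.64 ± 0.18 in liver and 0.64 ± 0.14 in PVWM.

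In surfactant against unventilated, DGKA, EEF2K and HEXIM1 fell in liver and SYK rose. In PVWM, DGKA, EEF2K and FHOD1 rose and none of the 8 was called lower. This contrast was not used to choose the genes, but it shares the surfactant libraries in which they were chosen to be low, so it is not independent of the choice. In liver 21.6% of all genes were called higher and 19.5% lower, and 1 of the 8 genes was called higher and 3 lower. In PVWM 1.35% were called higher and 0.698% lower, and 3 of the 8 were called higher and 0 lower by edgeR (4 higher and 1 lower at an unadjusted p under 0.05, and 4 higher and 0 lower by DESeq2). The gene lower in PVWM at an unadjusted p under 0.05 was EPHX2, where the surfactant libraries lay below all unventilated ones (log2 change -0.47 ± 0.17, edgeR adjusted p = 0.219).

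In liver, HEXIM1 averaged 32.0 ± 10.5 CPM with surfactant and 75.5 ± 7.44 CPM in unventilated lambs (SD, n = 4 each), a log2 change of -1.24 ± 0.24 with an edgeR adjusted p of 0.00172. EEF2K averaged 34.4 ± 15.1 CPM with surfactant and 76.7 ± 4.66 CPM in unventilated liver, a log2 change of -1.16 ± 0.27 with an edgeR adjusted p of 0.00499. DGKA had a smaller log2 change of -0.62 ± 0.18, with an adjusted p of 0.0152 in edgeR. For all 3, every surfactant library lay below every unventilated one. SYK averaged 37.3 ± 10.6 CPM with surfactant and 17 ± 1.67 CPM in unventilated liver, a log2 change of 1.13 ± 0.20 (edgeR adjusted p = 0.000876), with no overlap. CHKA, at -0.46 ± 0.20, and EPHX2, at 0.60 ± 0.26, missed the threshold in liver, with edgeR adjusted p of 0.0747 and 0.0799. Single surfactant livers decided both: without animal 051 CHKA was called (-0.63, edgeR adjusted p = 0.0204) and EPHX2 was at 0.21, and without animal 049 EPHX2 was called (0.71, edgeR adjusted p = 0.0452). FHOD1 and DPY19L4 were at 0.04 ± 0.20 and -0.04 ± 0.18.

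In PVWM, FHOD1 averaged 21.9 ± 4.95 CPM with surfactant and 8.57 ± 1.56 CPM in unventilated lambs, a log2 change of 1.35 ± 0.17 (edgeR adjusted p = 0.00172). DGKA averaged 43.1 ± 4.80 CPM with surfactant and 19.9 ± 3.13 CPM in unventilated PVWM, a log2 change of 1.11 ± 0.13 (edgeR adjusted p = 0.000855). EEF2K had a log2 change of 0.65 ± 0.08 (edgeR adjusted p = 0.00165). Each of these 3 genes had every surfactant library above every unventilated one. HEXIM1 was also without overlap, at 0.50 ± 0.13, but missed the threshold (edgeR adjusted p = 0.0784), which it passed without surfactant animal 007 (0.57, edgeR adjusted p = 0.0453) and by DESeq2 (adjusted p = 0.0194). Over all 13 alternatives the HEXIM1 change was 0.36 to 0.57, with a highest edgeR adjusted p of 0.872. SYK was at 0.37 ± 0.24, CHKA at 0.08 ± 0.11 and DPY19L4 at 0.05 ± 0.14, none of them called.

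Unventilated lambs were older, and with gestational age as a covariate most of these calls were lost. In liver none of the 4 stayed called: DGKA was at -0.45, EEF2K at -0.87, HEXIM1 at -1.13 and SYK at 0.99, with edgeR adjusted p of 0.292, 0.164, 0.0808 and 0.0656. In PVWM DGKA stayed called (edgeR adjusted p = 0.0219), while EEF2K was at 0.63 and FHOD1 at 1.14 (edgeR adjusted p = 0.108 and 0.151). Directions did not change for any of these 7. Over all genes, calls fell with age as a covariate from 6911 to 1398 in liver and from 382 to 15 in PVWM. Age and ventilation overlapped only at 127 days, so this fit separates them poorly.

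**Figure D3:**
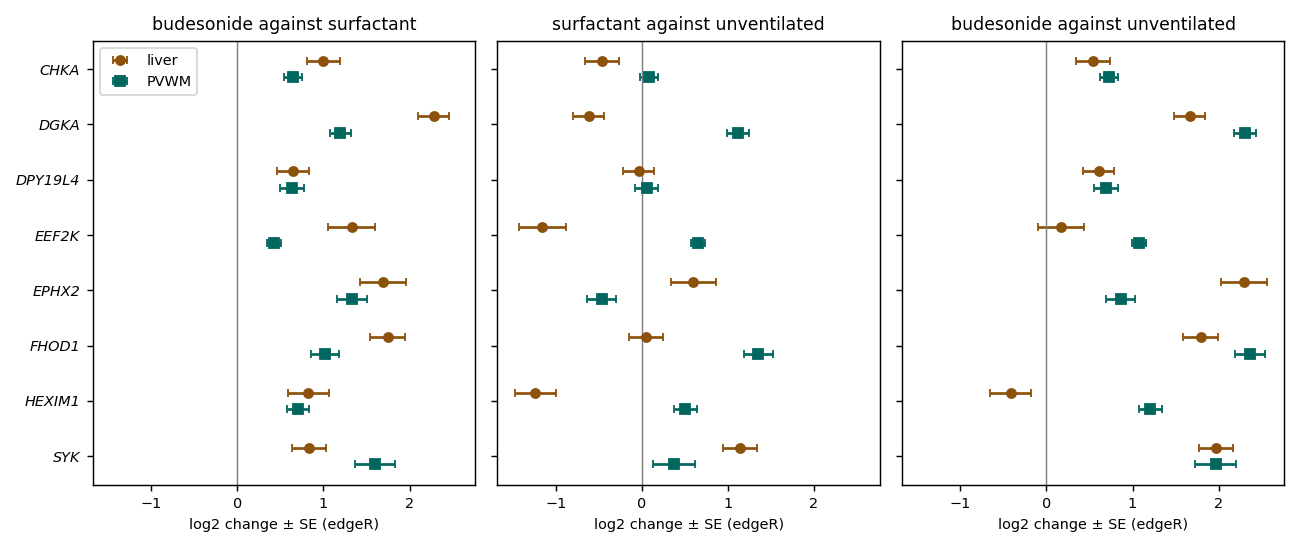
Log2 change of each gene in the edgeR fit of each tissue (x axis), with SE bars, in 3 panels for the 3 contrasts of the groups; circles are liver and squares PVWM. The first panel shows the values on which the genes were chosen. In the middle panel CHKA, DGKA, DPY19L4, EEF2K and HEXIM1 lie left of 0 in liver and right of 0 in PVWM, and EPHX2 lies the other way. By edgeR, CHKA, DPY19L4 and EPHX2 were called in neither tissue there, and HEXIM1 in liver only.

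The tissues were compared in 1 edgeR fit of all 24 libraries over 20010 genes, scaled together. CPM in this and the next paragraph are on that joint scale unless stated. The joint TMM factors were 0.614 to 0.879 in liver and 1.32 to 1.38 in PVWM. TMM scaling takes most genes as unchanged between libraries, which the shares called between tissues, given below, do not bear out. The smaller level differences therefore depend on this scaling, and no fit without scaling across tissues was made. The levels of unventilated libraries were not part of the contrast on which the genes were chosen, but those libraries shared its filter, scaling and estimate of the spread: fitted with only the budesonide and surfactant groups, 5 of the 8 genes were called in liver. EPHX2 was far more abundant in liver, at 141 ± 24.3 CPM in unventilated liver and 5.91 ± 0.86 CPM in unventilated PVWM (SD, n = 4 each), a 23.8-fold difference (log2 4.57 ± 0.26, edgeR adjusted p = 1.80e-13). SYK followed, at 22.3 ± 2.78 CPM in liver and 3.37 ± 0.457 CPM in PVWM, a 6.61-fold difference (edgeR adjusted p = 3.84e-10). HEXIM1, at 99.0 ± 7.21 CPM in liver and 48.3 ± 2.65 CPM in PVWM, CHKA, at 23.6 ± 3.24 CPM in liver and 12.7 ± 1.09 CPM in PVWM, and FHOD1, at 12.1 ± 0.755 CPM in liver and 6.51 ± 1.32 CPM in PVWM, were higher in liver by log2 differences of 1.04, 0.90 and 0.89 (edgeR adjusted p of 5.45e-05, 1.85e-05 and 0.000165). DPY19L4 had a log2 difference of 0.52 ± 0.16 (edgeR adjusted p = 0.00614). DGKA (-0.24 ± 0.15) and EEF2K (-0.07 ± 0.20) were not called, with edgeR adjusted p of 0.150 and 0.744. Thus 6 of the 8 were called higher in liver and 0 lower, while 36.1% of all genes were called higher in liver and 41.7% lower. With gestational age in each tissue as a covariate, FHOD1 was no longer called (0.47, edgeR adjusted p = 0.0900).

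The change with surfactant over unventilated differed between tissues for 5 of the 8 genes by the test of that difference in the same fit. The surfactant values in it were also part of the choice of the genes in each tissue, so this test is not independent of the choice. The liver change minus the PVWM change was -1.74 ± 0.29 for EEF2K, -1.67 ± 0.28 for HEXIM1, -1.66 ± 0.22 for DGKA and -1.23 ± 0.26 for FHOD1, and 1.14 ± 0.33 for EPHX2. The edgeR adjusted p were 0.000162, 0.000169, 1.21e-05, 0.00146 and 0.0128 in that order. Over all genes, 14.6% were called with a higher change in liver and 11.2% with a lower one, and for the same reason nothing is read from the 8 genes' count beside these shares. SYK, at 0.84 ± 0.32, and CHKA, at -0.46 ± 0.22, were not called (edgeR adjusted p = 0.0552 and 0.131), and DPY19L4 was at -0.03 ± 0.23. The SYK difference was called by DESeq2 (adjusted p = 0.0497) and by edgeR when liver animal 007 or 049, or PVWM animal 049, 051 or 058, was omitted (0.92 to 1.06, adjusted p of 0.0176 to 0.0497). The CHKA difference was called without liver animal 051 (-0.61, edgeR adjusted p = 0.0401). With gestational age in each tissue as a covariate, an alternative added after the data were seen, only DGKA stayed called (-1.73, edgeR adjusted p = 0.00462), and EEF2K, HEXIM1, FHOD1 and EPHX2 had adjusted p of 0.0547, 0.0672, 0.370 and 0.198.

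The corresponding difference for budesonide over surfactant is given without a test, since both of its parts chose the genes. The liver change minus the PVWM change was 1.09 ± 0.21 for DGKA, 0.91 ± 0.29 for EEF2K, 0.73 ± 0.26 for FHOD1 and -0.77 ± 0.31 for SYK. It was 0.37 ± 0.32 for EPHX2, 0.36 ± 0.22 for CHKA, 0.13 ± 0.28 for HEXIM1 and 0.02 ± 0.23 for DPY19L4. Against unventilated lambs, the budesonide group had log2 changes in liver of 2.29 for EPHX2, 1.97 for SYK, 1.79 for FHOD1, 1.66 for DGKA, 0.60 for DPY19L4 and 0.54 for CHKA. In PVWM the same contrast gave 2.31 for DGKA, 1.97 for SYK, 0.86 for EPHX2, 0.73 for CHKA and 0.69 for DPY19L4. The difference between tissues of this contrast was not tested. The contrasts share libraries and are given side by side only.

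The other genes of each pathway, from 8 lists that hold none of the 8 genes, mostly did not pass the test of budesonide against surfactant. Over all genes tested, 4.01% were called higher and 7.85% lower in liver, and 0.591% higher and 0.387% lower in PVWM. Among 11 other genes of the CDP-choline and CDP-ethanolamine pathway, 0 were called higher and 2 lower in liver, and 0 of 11 in PVWM. The lower ones in liver were PEMT, which makes phosphatidylcholine by methylation (log2 change -0.85 ± 0.20, edgeR adjusted p = 0.0184), and CHPT1, a cholinephosphotransferase (-0.53 ± 0.16, edgeR adjusted p = 0.0468). Of the other diacylglycerol kinases, 0 of 6 were called higher in liver and 1 lower, DGKD (-1.54 ± 0.32, edgeR adjusted p = 0.0118, with overlapping groups), and 0 of 9 in PVWM. The CHPT1 call was lost without any of 7 libraries (highest adjusted p 0.125 in edgeR, without budesonide animal 048) and the PEMT call without budesonide animal 048 (0.0594). Of other genes of epoxide and eicosanoid metabolism, 0 of 18 were called higher and 4 lower in liver, among them PTGIS, prostacyclin synthase (-1.11 ± 0.18, edgeR adjusted p = 0.00346), and PTGS2, the inducible cyclooxygenase (-5.70 ± 1.18, edgeR adjusted p = 0.0110). PTGS2 averaged 7.94 ± 4.65 CPM with budesonide and 414 ± 456 CPM with surfactant in liver, and the groups overlapped. In PVWM 0 of 18 were called. The median log2 change of the eicosanoid list was -0.65 in liver and -0.27 in PVWM, beside -0.01 over all genes in each tissue.

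Around HEXIM1, 1 of 19 genes of the 7SK complex, P-TEFb and elongation factors was called higher in each tissue, and 0 lower: MLLT3 in liver (1.38 ± 0.40, edgeR adjusted p = 0.0408) and AFF1 in PVWM (0.90 ± 0.17, edgeR adjusted p = 0.0246), both members of elongation complexes. The MLLT3 call was lost without any of 7 libraries (highest edgeR adjusted p 0.118, without surfactant animal 049) and the AFF1 call when animal 031, 048 or 050 of the budesonide group, or 032 or 051 of the surfactant group, was omitted (highest 0.0727, without 050). In liver DESeq2 called 3 genes of this list higher and 0 lower. At an unadjusted p under 0.05, 4 were higher and 1 lower there. The list medians were 0.17 in liver and 0.03 in PVWM. HEXIM2, the paralogue and neighbour of HEXIM1, was not called, at 0.02 ± 0.20 in liver and 0.11 ± 0.16 in PVWM. Around EEF2K, 1 of 18 genes of eEF2 kinase and mTOR control rose in liver, SESN1, a sestrin that restrains mTORC1 (2.14 ± 0.52, edgeR adjusted p = 0.0204), 1 fell, RPS6KA3, a ribosomal S6 kinase (-1.04 ± 0.27, edgeR adjusted p = 0.0295), and 0 of 18 were called in PVWM. Omitting animal 031 of the budesonide group or 032 of the surfactant group ended the SESN1 call (edgeR adjusted p of 0.0529 and 0.0527). Omitting animal 031, 050 or 054 of the budesonide group or 049 of the surfactant group ended the RPS6KA3 call (highest 0.0885, without 031). The list medians were 0.08 in liver and 0.03 in PVWM.

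Around SYK, 0 of 17 genes of ITAM receptor signalling were called higher by edgeR in either tissue. In liver 4 fell, among them PIK3AP1, an adaptor of PI3 kinase (-1.12 ± 0.20, edgeR adjusted p = 0.00544), and VAV1, a guanine nucleotide exchange factor of immune cells (-0.89 ± 0.23, edgeR adjusted p = 0.0266), and in PVWM 1 fell, FCER1G, the ITAM-bearing gamma chain of Fc receptors (-1.03 ± 0.21, edgeR adjusted p = 0.0355). The VAV1 call was lost when animal 031 or 050 of the budesonide group, or 032 of the surfactant group, was omitted (highest edgeR adjusted p 0.0811, without 031), and the FCER1G call without any of 6 libraries (highest 0.113, without budesonide animal 054). DESeq2 called 1 gene of this list higher and 4 lower in liver, and 0 higher and 2 lower in PVWM. At an unadjusted p under 0.05, 1 was higher and 5 lower in liver, and 0 higher and 3 lower in PVWM. The list medians were -0.18 in liver and -0.27 in PVWM. Of the other formins, DAAM2 rose (0.97 ± 0.20, edgeR adjusted p = 0.0112) and FMNL3 fell (-1.15 ± 0.33, edgeR adjusted p = 0.0412) of 10 tested in liver, and 0 of 12 were called in PVWM. The FMNL3 call was lost without any of 7 libraries (highest edgeR adjusted p 0.120, without surfactant animal 049). The formins had list medians of -0.34 in liver and 0.02 in PVWM. None of the other DPY19 genes was called, of 2 tested in liver and 3 in PVWM; their list medians were 0.27 in liver and -0.11 in PVWM. The CDP-choline list had medians of -0.11 in liver and -0.03 in PVWM, and the diacylglycerol kinases -0.39 in liver and 0.01 in PVWM. No gene of these 8 pathway lists was called in both tissues in the same direction.

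The lists with 0 calls in PVWM by edgeR were set beside looser counts. At an unadjusted p under 0.05, the CDP-choline list had 0 of 11 genes changed, the diacylglycerol kinases 1 of 9 higher, the eEF2 kinase and mTOR list 1 of 18 higher and 1 lower, and the formins 2 of 12 higher and 2 lower. The eicosanoid list had 1 of 18 higher and 7 lower, and the DPY19 family 0 of 3, besides 1 of 2 higher in liver. DESeq2 called 1 diacylglycerol kinase higher and 1 formin lower in PVWM, and none in the CDP-choline, eEF2 kinase, eicosanoid and DPY19 lists. In liver DESeq2 called 8 of 18 eicosanoid genes lower and 0 higher, and of the 11 CDP-choline genes 1 higher and 4 lower.

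**Figure D4:**
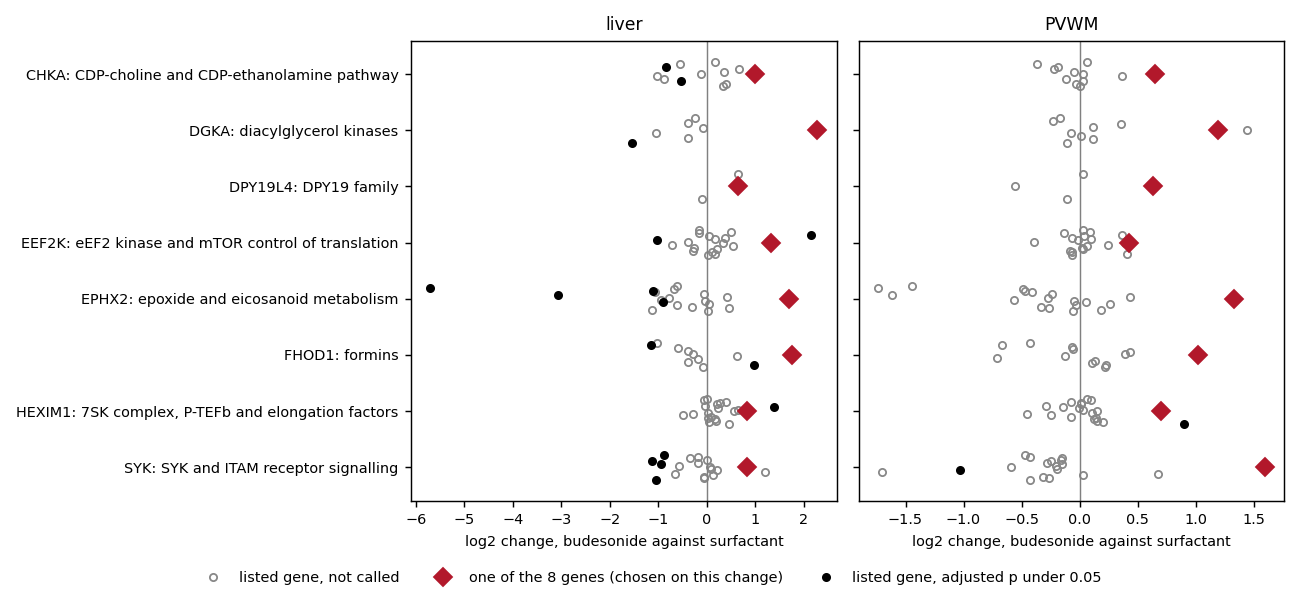
Log2 change with budesonide over surfactant in liver (left) and PVWM (right) for the genes of 8 pathway lists, one list per line. Diamonds are the 8 genes, which were chosen on this change, filled points are list genes with adjusted p under 0.05 and open points those without. In liver DGKA (2.28) lies right of all 6 other diacylglycerol kinases. In PVWM DGKH (1.44, not called by edgeR) lies right of DGKA (1.20), and few list genes are filled.

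Some cell markers moved with budesonide too. Over all genes tested, 7.85% were called lower with budesonide than with surfactant in liver and 0.387% in PVWM. SYK is expressed in myeloid cells and B cells. In PVWM 3 of 13 microglia and macrophage markers were lower with budesonide than with surfactant and 0 higher: CX3CR1 (log2 change -2.13, edgeR adjusted p = 0.00468), P2RY12 (-1.44, edgeR adjusted p = 0.00460) and CSF1R (-0.98, edgeR adjusted p = 0.00165). The summed level of the marker list in PVWM was 147 to 191 CPM with budesonide, 225 to 331 CPM with surfactant and 259 to 276 CPM in unventilated lambs. MARCO was at 0 in all budesonide libraries of PVWM, but it did not pass the filter on low counts there and was not tested. These values and the SYK values are given side by side only, and the part of these cells in the SYK values was not tested. In liver the same list summed to 871 to 1316 CPM with budesonide, 979 to 1213 CPM with surfactant and 790 to 959 CPM in unventilated lambs, with 2 of 14 lower, PTPRC (-0.76, edgeR adjusted p = 0.0112) and P2RY12 (-2.23, edgeR adjusted p = 0.00236), and 0 higher. Of 4 B cell markers 1 passed the filter in liver, CD22, which was lower with budesonide (-1.16, edgeR adjusted p = 0.0110), and the list summed to 1.32 to 2.12 CPM with budesonide, 3.90 to 4.89 CPM with surfactant and 4.15 to 6.12 CPM in unventilated liver. In PVWM it summed to 2.64 to 4.41 CPM with budesonide, 1.40 to 4.38 CPM with surfactant and 2.27 to 3.53 CPM in unventilated lambs, with 0 of 3 called (1 lower at an unadjusted p under 0.05, 0 by DESeq2).

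SYK in liver was higher with surfactant than in unventilated lambs, and so were markers of several cell types by edgeR: 6 of 6 neutrophil markers, 6 of 14 microglia and macrophage markers (1 lower) and 3 of 6 endothelial markers, beside 21.6% of all genes. The macrophage sums given above did not overlap between surfactant and unventilated livers. Neutrophil markers had sums of 82.6 to 270 CPM with surfactant and 24 to 71.6 CPM in unventilated liver, and 0 of 6 were called with budesonide over surfactant by edgeR, by DESeq2 or at an unadjusted p under 0.05, where the budesonide sums were 76.7 to 120 CPM. Their part in the SYK values was not tested. Endothelial markers were lower in liver with budesonide than with surfactant for 4 of 6 genes, with sums of 232 to 279 CPM with budesonide, 376 to 490 CPM with surfactant and 269 to 338 CPM in unventilated lambs. In PVWM 0 of 6 were called (3 lower at an unadjusted p under 0.05, 1 lower by DESeq2), with sums of 165 to 204 CPM with budesonide, 200.2 to 388 CPM with surfactant and 224 to 254 CPM in unventilated lambs. Their part in the 8 genes' values was not tested. With budesonide over surfactant, edgeR called 0 of 9 hepatocyte markers in liver (2 lower at an unadjusted p under 0.05, 1 lower by DESeq2), 0 of 7 neuron markers in PVWM (0 by either) and 0 of 7 astrocyte markers in PVWM (1 lower unadjusted, 0 by DESeq2).

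Genes lying next to the 8 genes in RefSeq order were also examined. Of 13 neighbours tested in liver and 12 in PVWM in budesonide against surfactant, edgeR called 0 higher in either tissue, as did DESeq2, and 0 were higher at an unadjusted p under 0.05. In liver 3 were called lower by edgeR, among them INTS8, beside DPY19L4, and AUH, beside SYK. The INTS8 call was lost without any of 6 libraries (highest edgeR adjusted p 0.131, without surfactant animal 032) and the AUH call when animal 031, 048 or 054 of the budesonide group, or 049 of the surfactant group, was omitted (highest 0.0758, without 031).

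The genes whose levels most resembled each of the 8 over the 12 libraries of each tissue, out of 12699 candidates, were ranked by the lower of the Pearson r of log2 CPM in the tissues. The libraries share their treatment groups, so these r describe likeness across groups and animals together. They include the libraries on which the 8 genes were chosen. A gene that rose with budesonide in both tissues could therefore rank high. FHOD1 was most like SLC7A8, an amino acid transporter (r at least 0.943), followed by PNKD and USP53. HEXIM1 was most like C22H10orf2 (0.937), then ADCY6 and NUDT7. SYK was most like RFTN1, a lipid raft protein (0.930), then NLRP3, the inflammasome sensor, and GADD45G. DGKA was most like FAM234A (0.923), then NXPE3 and USP53, and EEF2K was most like PIP4K2C (0.922), then AKAP8 and NOSTRIN. CHKA was most like SLC37A4, the glucose-6-phosphate transporter (0.888), then C12H1orf167 and USP53, DPY19L4 most like PRTG (0.867), then NUP107 and THAP9, and EPHX2 most like ARCN1 (0.856), then RALGAPB and ZNF473. USP53 was among the 3 nearest of CHKA, DGKA and FHOD1, and its own log2 change with budesonide over surfactant was 1.19 in liver and 1.17 in PVWM.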

How the data were processed

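The authors deposited whole-number read counts per gene for liver and PVWM. Per the submitters' processing notes, Bowtie2, featureCounts and edgeR were used; versions, settings, strand use and genome build are not given in the sources used here. Per the labels' protocols, RNA was poly-A selected and sequenced as paired 75-base reads. The fits were made with edgeR 4.0.16 under R 4.3.3, and DESeq2 1.42.0 served as an alternative.

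Within each tissue, the 12 libraries were filtered by filterByExpr, scaled by TMM and fitted in 3 groups by robust quasi-likelihood. Log2 CPM used a prior count of 2. SE is the absolute log2 change over the square root of F. A joint fit of 24 libraries in 6 groups served the tissue comparisons. Symbols replaced by dates, 23 per table and up to 0.282% of counts, stayed out of it. RefSeq symbols of ARS-UI_Ramb_v3.0 were used for names and neighbours. The fits were tested on simulated counts.

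The 8 genes and all lists were chosen with earlier results of these data known. Named pathway-list genes are those called in both tissues alike, and per list and tissue up to 2 called genes with the smallest adjusted p. Markers and FHOD1's and HEXIM1's neighbours were named besides. Of the glucocorticoid response list, FKBP5 alone was chosen for naming. Liver and PVWM libraries with the same animal number are taken as the same animal (11 of 13 animals), and their deviations from group means had correlations of 0.080 to 0.251. Animals are the replicates. Alternatives were scaling, filter, DESeq2, groups fitted, age, an animal block, and leaving out each library.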

Additional observations from a re-analysis of the deposited data

Results flagged for a closer look

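DGKA in PVWM of unventilated animal 058 was at 15.2 CPM, apart from the other 3 unventilated libraries at 21.2 to 21.8 CPM, by Dixon's criterion. It was the only such value among 48 groups of 4, and chance flags about 1 in 20. Without that library, DGKA was called lower in unventilated liver than in unventilated PVWM (log2 difference -0.36, edgeR adjusted p = 0.0360), which it was not with it (-0.24).

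The log2 change with surfactant over unventilated in liver minus that in PVWM passed the test for DGKA (-1.66), EEF2K (-1.74), EPHX2 (1.14), FHOD1 (-1.23) and HEXIM1 (-1.67). The surfactant values behind it were also part of the choice of these genes. The gestational age of the groups moved with this contrast. With age in each tissue as a covariate these differences were -1.73, -1.47, 1.15, -0.62 and -1.47, and only that of DGKA stayed called.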

How the results depend on the processing

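Among the 32 tested results of the 8 genes, 18 were called, 7 of these under every alternative, and 11 were lost under at least 1; none changed direction. The 14 others included 6 that some alternative called and 4 that changed sign. Of 23 called results of other genes followed, 12 kept the call under every alternative and 11 lost it under at least 1. All 11 lost calls were of pathway-list genes or neighbours, of which only DAAM2, DGKD, PIK3AP1, PTGIS and PTGS2 kept theirs. The rest of the kept calls were of FKBP5 in each tissue and of the macrophage markers CSF1R, CX3CR1, P2RY12 and PTPRC.

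Genes called with budesonide over surfactant numbered 1994 in liver, against 2998 with only 126-day animals in the ventilated groups, 3135 by DESeq2, 884 with only the groups compared and 1007 to 2838 with 1 library left out (lowest without animal 031). In PVWM they numbered 182, against 61, 548 and 69 under those alternatives and 66 to 166 with 1 library left out (lowest without animal 050). Of the 8 genes, 5 stayed called in liver with only the groups compared, and 5 to 8 with 1 library left out (5 without surfactant animal 049). In PVWM 2 stayed called with only 126-day animals in the ventilated groups, and 5 to 7 with 1 library left out (5 without budesonide animal 050 or 054 or surfactant animal 032, 7 without animal 051). The 126-day fit left out animals 054 and 007, the only labelled males of the ventilated groups, and kept all unventilated libraries.

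Genes called with surfactant over unventilated numbered 6911 in liver (1398 with age as covariate, 5509 to 8109 with 1 library left out). In PVWM they numbered 382 (822 by DESeq2, 15 with age, 174 with only the groups compared, 173 to 501 with 1 library left out, lowest without animal 061). With age, 0 of the 4 calls among the 8 genes in liver stayed and 1 of the 3 in PVWM, while leaving out 1 library gave 4 to 5 in liver and 3 to 4 in PVWM. The tissue difference of this change had 5170 calls, and 664 with age in each tissue; among the 8 genes these counts were 5 and 1. With 1 library left out these were 4364 to 6650 and 5 to 6. The liver against PVWM comparison had 15585 calls, 15228 to 15350 with 1 library left out, and 6 to 7 of the 8 genes.

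Signs turned only for values near 0. DPY19L4 with surfactant over unventilated in liver was 0.14 with age and -0.222 to 0.0431 with 1 library left out, and -0.0879 to 0.148 in PVWM; FHOD1 in liver was -0.14 to 0.11. The liver minus PVWM difference of DPY19L4 was -0.0090 by DESeq2, -0.0094 by median-ratio scaling and -0.0716 to 0.188 with 1 library left out for budesonide, and -0.20 to 0.10 for surfactant. That of HEXIM1 for budesonide was -0.0657 to 0.289. HEXIM2 with budesonide over surfactant in liver was as low as -0.0735 without budesonide animal 048.

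Animals paired the tissues by their number. With the replicate block for the animal, the EPHX2 level difference was 4.59 and the DGKA difference -1.68, and no call of the 8 genes changed. The cause of the lost calls was not tested.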
